A study of Mus musculus with 15 samples.

Results

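Messenger RNA of the mouse left ventricle after a sham operation was described as the baseline of the ventricle, in 5 of the 15 libraries of a study of myocardial infarction. The members were chosen by their label alone, as the 5 columns of the count table whose names begin with Sham, and no measured value was used. In this report they are called Sham 16 to Sham 20, after the numbers in their labels. The mice were C57BL/6, the operation was a sham, the treatment field says that none was given, and the tissue was taken at an age matched to the infarcted mice, given as 10 weeks. The labels name no transgene, deletion or sex. In the other groups the same strain had an infarct and, 7 days later, an injection of saline (PBS, 5 libraries) or of a hydrogel named rHCI (5 libraries), and the ventricle was taken 2 days after the injection. Hearts of all groups were perfused with PBS before the ventricle was frozen and ground, so each library holds the RNA of all cell types of the tissue. The study's design text calls the 5 libraries of a group biological replicates and says no more about their source, so spreads and p-values measure the spread between these libraries.

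The left ventricle is the chamber that drives blood into the body. Its muscle cells shorten when calcium released from an internal store lets myosin heads pull on actin filaments, and pumps then return the calcium to the store. The muscle works without pause and makes its ATP almost wholly in mitochondria, mainly from fatty acids and also from glucose, lactate and ketones. Heart muscle cells use particular members of many gene families, and other members of these families mark fetal heart, atrium, skeletal muscle or non-muscle cells.

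The table held counts for 47069 genes. Totals lay between 53211878 counts in Sham 17 and 100899246 in Sham 20, and scaling factors by the trimmed mean of M-values (TMM) were close to 1. Levels are given as CPM, counts relative to the library total after TMM scaling, or, where genes are compared with each other, as TPM, which divides counts by the length of a gene's principal transcript and scales each library to one common sum. A mean of at least 1 CPM was reached by 12651 genes, 12008 of them protein-coding. Protein-coding genes took 98.1% ± 0.138 of the counts (mean ± SD, n = 5 here and below). The labels carry a number whose meaning they leave unexplained, called a run number here, that was shared by 4 sham libraries and differed for Sham 19. Every pair of sham libraries differed by more than counting noise, with a chi-square per gene of 16.8 to 44.8 over 10 pairs.

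The markers of working heart muscle were present throughout. All 14 cardiomyocyte markers exceeded 1 TPM, with a median of 6933 TPM, and their summed level was 92201 to 99486 TPM. Nkx2-5, a transcription factor of cardiac muscle, had 88.3 ± 7.19 TPM, and Gata4, another, had 70.2 ± 5.48 TPM. Of the 8 genes marking lung and thymus 0 exceeded 1 TPM, and 4 of them (Sftpb, Dntt, Rag1 and Foxn1) had 0 counts in all 5 libraries. A count of 0 over the 354807151 sham counts allows a level of up to 0.00846 CPM, counting error only. The label of heart muscle was therefore matched by its markers, and the ventricular and atrial forms of myosin light chain are given below. Xist, the RNA that coats the inactive X chromosome (ENSMUSG00000086503; GRCm38 chromosome X, 103460366 to 103483254), had 206, 216, 211, 176 and 160 CPM in Sham 16 to Sham 20. The 4 Y-linked genes measured, Ddx3y, Uty, Kdm5d and Eif2s3y, had 0 counts in every sham library.

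A small number of genes held much of the messenger RNA. The 10 genes with the largest shares took 21.8% ± 0.603 of the counts and the 25 largest took 29.8% ± 0.433. Between 233 and 250 genes were enough to hold 50% of a library, and 98 genes had at least 1000 CPM. Of the 10 largest, 6 were encoded by the mitochondrial genome, and the other 4 were Myh6, Atp2a2, Mb and Actc1. Without the mitochondrial genes in the total, the 25 largest nuclear genes took 18.3% of the counts.

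**Figure D1:**
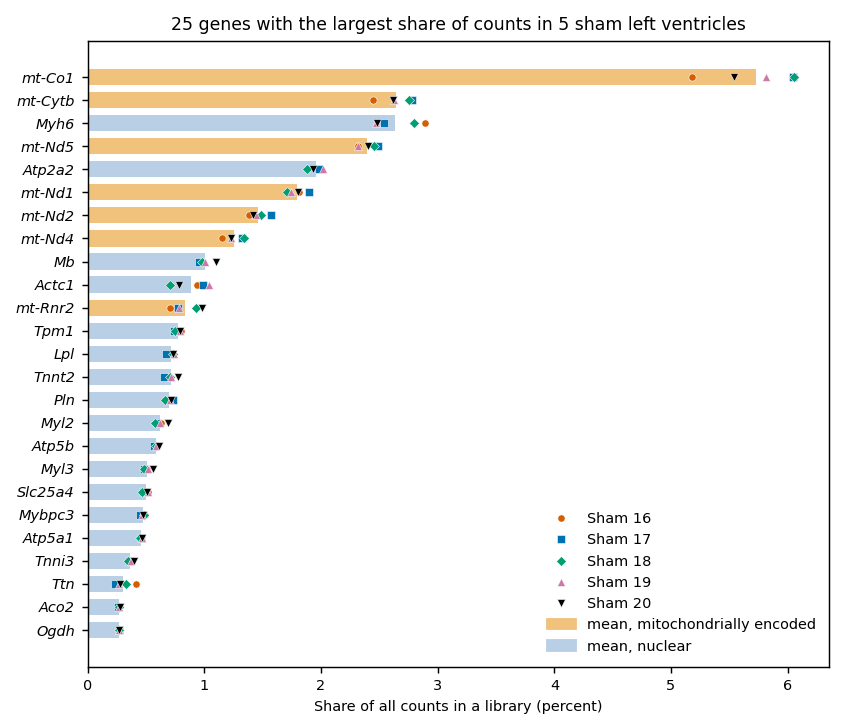
Share of all counts (x axis, percent) of the 25 genes with the largest mean share (y axis), with a bar for the mean of the 5 sham libraries and a symbol for each library. Mitochondrially encoded genes fill 6 of the first 8 places, and the widest range of symbols is that of mt-Co1, from 5.18% to 6.05%.

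The mitochondrial genome took 15.3%, 17.2%, 17.1%, 16.3% and 16.3% of the counts in Sham 16 to Sham 20. Sham 16 was the lowest and the mean was 16.4% ± 0.769. The largest single gene was mt-Co1, the catalytic subunit of cytochrome oxidase (ENSMUSG00000064351; mitochondrial genome, 5328 to 6872), with 5.18%, 6.04%, 6.05%, 5.81% and 5.54% in Sham 16 to Sham 20. mt-Cytb, the cytochrome b of complex III, followed with 2.64% ± 0.135. The complex I subunits mt-Nd5, mt-Nd1, mt-Nd2 and mt-Nd4 held 2.39%, 1.79%, 1.46% and 1.25%.

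The 13 mitochondrial protein genes split into 6 with 12541 to 57238 CPM and 7 with 6.51 to 264 CPM. The low ones were mt-Co3 (264 CPM), mt-Nd6 (217 CPM), mt-Co2 (101.05 CPM), mt-Atp6 (50.3 CPM), mt-Nd3 (15.4 CPM), mt-Atp8 (10.5 CPM) and mt-Nd4l (6.51 CPM). All 13 encode subunits of the respiratory chain or ATP synthase. Of the 7 low genes, 5 have an annotated copy on nuclear chromosome 1 that is at least 99% identical over more than 90% of their length. None of the 6 high genes has (0 of 6), although such copies cover 31.3% of mt-Co1 and 63.6% of mt-Nd4. The copy of mt-Co3 is Gm28437 (chromosome 1, 24613189 to 24613971), identical over 783 bases and itself at 72.1 ± 9.84 CPM. Among annotated nuclear genes no such copy of mt-Nd6 was found, and mt-Atp8 is covered over 21.1% of its length. Nuclear sequence outside annotated genes was not searched, so copies there would have been missed. The stretch between the copies of mt-Atp6 and mt-Co2 (chromosome 1, 24614651 to 24614885) is such a case. How the authors' counting treated reads shared by near-identical genes is not given in the sources used here, so the levels of these genes, and the mitochondrial share as a whole, are uncertain.

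Among nuclear genes, the order by counts and the order per length differed. Myh6, the fast myosin heavy chain of the adult mouse ventricle (ENSMUSG00000040752; chromosome 14, 54941921 to 54966927), led by counts with 2.89%, 2.54%, 2.80%, 2.48% and 2.48% in Sham 16 to Sham 20. Sham 16 and Sham 18 were higher than the other three. Atp2a2, the calcium pump SERCA2 of the internal store (ENSMUSG00000029467; chromosome 5, 122453513 to 122502225), was second with 1.96% ± 0.0522. Per length the leading nuclear gene was Myl2, the regulatory light chain of ventricular myosin (ENSMUSG00000013936; chromosome 5, 122100951 to 122113472), with 18559 ± 1140 TPM. Mb, the oxygen store myoglobin (ENSMUSG00000018893; chromosome 15, 77015487 to 77050670), had 17984 ± 910 TPM, and these levels overlapped within their SD.

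The next places per length belonged to the thin filament and its partners. Cardiac actin Actc1 had 11937 ± 1840 TPM, troponin T (Tnnt2) 11735 ± 709 TPM and the essential light chain Myl3 10799 ± 543 TPM, values that lay within the spread of Actc1. Atp2a2 (8639 ± 210 TPM), Myh6 (8540 ± 721 TPM), Tpm1 (8073 ± 278 TPM) and troponin I (Tnni3, 7954 ± 368 TPM) followed, with neighbours closer than their spread. Tpm1 is the tropomyosin that lies along actin. Ttn, the giant spring protein titin, ranked among the 25 largest by counts with 0.305% but had 60.1 ± 13.9 TPM with a principal transcript of 100404 bases. Ttn had 4128, 2307, 3313, 2669 and 2835 CPM in Sham 16 to Sham 20, so Sham 16 was highest and Sham 17 lowest.

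Genes of energy supply formed the second large block. All 21 fatty acid oxidation genes, all 18 genes of the tricarboxylic acid cycle, all 17 of glycolysis and all 36 nuclear genes of complex I exceeded 1 TPM. Their medians were 660, 810, 645 and 582 TPM. Fabp3, which carries fatty acids in the cytosol, had 4851 ± 478 TPM, and Lpl, which frees fatty acids from lipoproteins, had 3425 ± 142 TPM. Slc25a4, the heart's exchanger of ADP and ATP, had 5093 ± 240 TPM, and the ATP synthase subunit gene Atp5b had 6048 ± 135 TPM. Ogdh, a subunit of 2-oxoglutarate dehydrogenase, had the steadiest share of the 25 largest genes, 0.268% ± 0.00203 of the counts.

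In calcium handling, all 16 genes exceeded 1 TPM. Phospholamban (Pln), the inhibitor of the pump, had 5912 ± 194 TPM, next to 8639 TPM for the pump itself. Hrc, a calcium-binding protein of the store, had 941 ± 27.6 TPM, and calsequestrin (Casq2), its main calcium buffer, had 794 ± 95.8 TPM. The release channel Ryr2 had 240.5 ± 20.8 TPM.

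Markers of other cell types were lower and were found for most types. Over 24 marker lists, 148 of 222 genes exceeded 1 TPM. In bulk tissue, fewer cells of a type and less RNA per cell cannot be told apart. All 14 capillary endothelial markers (median 89.1 TPM), all 12 fibroblast markers (57.9 TPM), all 9 pericyte markers (20.01 TPM), all 8 arterial markers (9.82 TPM) and all 9 smooth muscle markers (20.7 TPM) were present. The capillary list was led by the fatty acid receptor Cd36 and the fatty acid carrier Fabp4, 1030 ± 59.0 and 836 ± 93.7 TPM, genes that are not limited to endothelium. Pecam1 and Cdh5, which join endothelial cells, had 96.4 ± 6.53 and 95.1 ± 9.84 TPM. Of the fibroblast markers, the actin-severing protein gelsolin (Gsn) had 923 ± 44.1 TPM, the proteoglycan decorin (Dcn) 445 ± 26.0 TPM and the collagen chain Col1a1 52.2 ± 7.49 TPM. Pln is also in the smooth muscle list and makes up most of its sum, whereas Myh11, the smooth muscle myosin, had 20.7 ± 0.993 TPM.

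**Figure D2:**
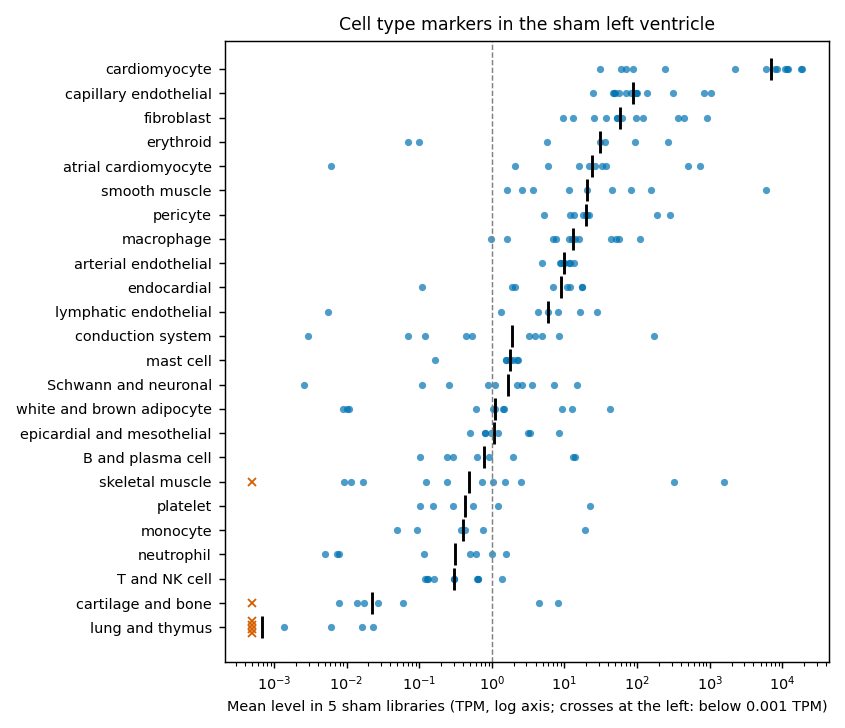
Mean level over the 5 sham libraries (x axis, TPM, log axis) of each marker gene (points), grouped by cell type list (y axis), with a black tick at the list's median and a dashed line at 1 TPM. Crosses at the left are genes below 0.001 TPM, and the lists run from cardiomyocytes with a median of 6933 TPM to lung and thymus, where 0 of 8 genes pass the line.

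Among immune cells, macrophage markers were the clearest, with 11 of 12 above 1 TPM and a median of 13.3 TPM. Their leading genes were the lysozyme gene Lyz2 (109 ± 8.66 TPM) and the complement gene C1qa (55.6 ± 5.16 TPM). Only 1 of 6 monocyte, 2 of 8 neutrophil and 1 of 10 T and NK cell markers exceeded 1 TPM. The monocyte gene above it was Ace, which capillary endothelium also makes, at 19.02 ± 2.25 TPM, whereas the chemokine receptor Ccr2 had 0.426 ± 0.108 TPM. Mast cell markers exceeded it for 6 of 7 genes, all under 3 TPM. The globin gene Hbb-bs had 270 ± 88.4 TPM although the hearts had been perfused.

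Cell cycle genes were low. Of 15 such genes 5 exceeded 1 TPM, with a median of 0.853 TPM, and Mki67, a marker of dividing cells, had 0.984 ± 0.382 TPM. Skeletal muscle markers split in a similar way. Ckm and Acta1, which heart muscle also makes, had 1576 ± 34.5 and 322 ± 111 TPM, while Tnnt3 had 0.742 ± 0.243 TPM, Actn3 0.122 ± 0.0566 TPM and Myh4, a fast skeletal myosin, 0 counts.

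Gene family use was read from the counts of paralogs, related genes that encode versions of one protein, as each gene's share of its family per transcript length. The table is by gene, so splice forms of one gene were not measured. In each of 44 families a lead gene had been set from what is known of adult heart, with earlier results of these data known. The choice favours large lead shares, so the counts that follow carry no test. The lead held at least 90% in 22 families, between 50% and 90% in 20 and under 50% in 2, and it was the largest member in all 5 hearts in 41 families. The exceptions were Ckm, Nppa and Mef2a. The share was steady between hearts, with an SD under 1 percentage point in 30 families and of 2 points or more in 8.

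**Figure D3:**
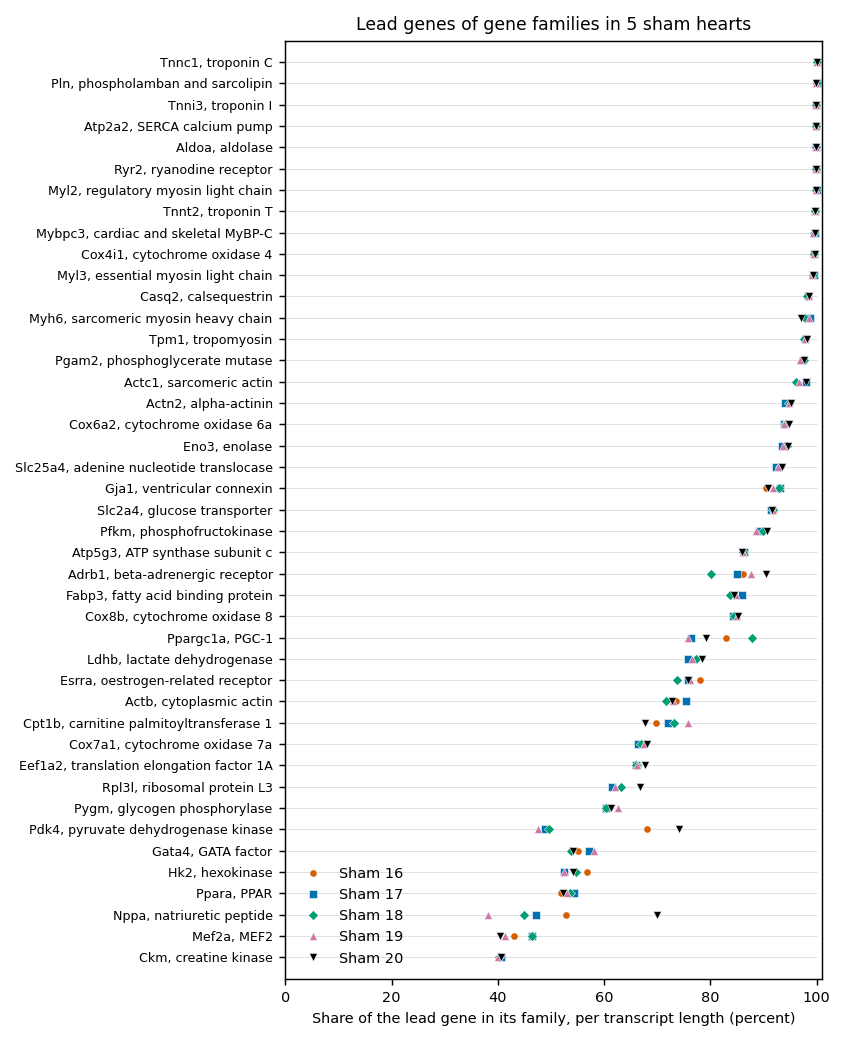
Share of the lead gene in its family per transcript length (x axis, percent) for the families described (y axis, lead gene and family), with a symbol for each sham library. The symbols nearly coincide for sarcomere families at the top and spread widest for Pdk4 and Nppa, whose shares run from 47.5% to 74.1% and from 38.2% to 69.9%.

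Sarcomere families were nearly single-gene families. Myh6 held 98.4%, 98.8%, 97.8%, 98.6% and 97.1% of the sarcomeric myosin heavy chains in Sham 16 to Sham 20. Of the remainder, Myh7, the slow chain of the fetal ventricle and of adult heart in larger mammals, held 1.29%, 0.774%, 1.79%, 1.08% and 2.61%. The Myh7 share was lowest in Sham 17 and highest in Sham 20. Myh7b, a further myosin heavy chain gene, held 0.341% ± 0.0662 and was highest in Sham 17, with 0.434%. Actc1 held 97.3% ± 0.887 of sarcomeric actin and the skeletal form Acta1 the other 2.65%. The ventricular light chain Myl2 held 99.9% ± 0.0826 against the atrial Myl7, and Tnni3, cardiac troponin I, held 99.96% against the fetal and skeletal forms. Atp2a2 held 99.9% of the calcium pumps. In the neighbouring list of excitation, Gja1 held 91.8% ± 1.20 of the ventricular connexins and Adrb1 85.9% ± 3.79 of the beta-adrenergic receptors.

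Families of metabolism were more mixed. Creatine kinase, which moves phosphate from mitochondria to the filaments, was split between the mitochondrial form Ckmt2 with 58.1% ± 0.397 and the cytosolic form Ckm with 40.4% ± 0.346. That order rests on transcript length, since Ckm held 55.6% by plain counts. Lactate dehydrogenase was 76.7% ± 1.14 Ldhb, the form of oxidative muscle. Enolase was 94.0% Eno3, the muscle form, and glycogen phosphorylase was 61.1% Pygm and 38.6% Pygb. Slc2a4, the insulin-responsive glucose transporter, held 91.7% ± 0.202 of its family of 5 transporter genes. Carnitine palmitoyltransferase 1, the gate for fatty acids into mitochondria, was 71.7% ± 3.06 Cpt1b, the muscle form, and 26.8% Cpt1a.

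Tissue-restricted subunits were found in the respiratory chain and in translation. Cox6a2 held 94.1% ± 0.425 of cytochrome oxidase 6a, Cox7a1 67.1% ± 0.663 of 7a and Cox8b 84.6% ± 0.466 of 8. In translation, Rpl3l, a muscle-restricted copy of ribosomal protein L3 (ENSMUSG00000002500; chromosome 17, 24727820 to 24736143), held 61.8%, 61.4%, 63.3%, 62.1% and 66.7% in Sham 16 to Sham 20. Eef1a2, the elongation factor form of muscle and neurons, held 66.4%, 66.0%, 66.1%, 66.1% and 67.7%. In both families Sham 20 had the largest share of the muscle form.

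Transcription regulators shared their families more evenly. Ppara, the fatty acid sensor, held 53.0% ± 0.968 of the PPARs, Ppard 29.1% and Pparg 17.9%. Esrra held 75.9% ± 1.49 of the oestrogen-related receptors, and Ppargc1a 80.4% ± 4.99 of the PGC-1 coactivators of mitochondrial genes. Gata4 and Gata6 stood at 55.6% and 44.2%, and Mef2d and Mef2a at 45.7% and 43.5%. The Mef2 order again rests on length, since Mef2a held 51.6% by plain counts.

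The widest differences between hearts within a family were those of Pdk4 and Nppa. Pdk4, the pyruvate dehydrogenase kinase that is induced by fasting and spares glucose, held 68.1%, 48.9%, 49.7%, 47.5% and 74.1% in Sham 16 to Sham 20. Sham 16 and Sham 20 stood above the other three, which lay within 3 points of each other. Nppa, atrial natriuretic peptide (ENSMUSG00000041616; chromosome 4, 148000722 to 148002079), held 52.7%, 47.1%, 44.9%, 38.2% and 69.9%, and its neighbour Nppb, B-type natriuretic peptide (ENSMUSG00000029019; chromosome 4, 147985788 to 147987205), held nearly all of the rest. In CPM, Nppa had 240, 158, 242, 199 and 273, and Nppb had 194, 160, 268, 290 and 106. Sham 20 thus had the most Nppa and the least Nppb.

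The same shares were set against those of the infarcted hearts. The lead share differed in 36 of 44 families for PBS against sham (81.8%), lower after infarct in 31 (70.5%) and higher in 5 (11.4%), by two-sided exact permutation tests with Benjamini-Hochberg adjustment. For rHCI against sham it differed in 32 of 44 families (72.7%), lower in 28 (63.6%) and higher in 4 (9.09%). Both comparisons use the same sham libraries. Of the 31 families lower in PBS hearts, 19 had a sham lead share of at least 90%, which leaves little room to rise. The shares of Actb, Aldoa, Nppa and Gata4 were higher in both, by unlike amounts. In PBS and rHCI hearts Aldoa rose by 0.0533 and 0.0475 points, Actb by 2.38 and 1.99 and Gata4 by 5.83 and 6.81. Some called changes downward were also small, such as -0.0682 points for Tnni3 and -0.0549 for Tnnt2 in PBS hearts. The falls in share were largest for Eef1a2, from 66.5% ± 0.723 in sham to 34.3% ± 4.41 in PBS and 38.8% ± 6.11 in rHCI hearts, and for Rpl3l, from 63.0% ± 2.14 to 31.0% ± 6.04 and 35.6% ± 9.28. Cpt1b fell from 71.7% to 50.9% ± 4.42 and 53.3% ± 4.22, Ppara from 53.0% to 35.0% ± 3.86 and 37.6% ± 4.27, and Myh6 from 98.2% to 90.9% ± 1.17 and 91.9% ± 3.04. Nppa rose from 50.6% to 85.5% ± 3.46 and 85.2% ± 3.84. In each of these 6 families no sham heart overlapped either infarcted group, with an exact permutation p of 0.0079 and an adjusted p of 0.0125. This p is the smallest that 5 against 5 libraries allow. Such separation was not particular to these 6. It was found in most of the 44 families in each comparison, among them those led by Tpm1, Ldhb and Cox8b. The sums of some marker lists were apart from sham in both infarcted groups, and those of others overlapped. The 14 capillary endothelial markers summed to 2729 to 3197 TPM in sham, 2779 to 2981 in PBS and 2723 to 3187 in rHCI hearts. The 9 pericyte markers summed to 522 to 619, 598 to 646 and 537 to 723 TPM. The summed level of the 12 fibroblast markers was 2040 to 2303 TPM in sham, 8741 to 12958 in PBS and 7207 to 13640 in rHCI hearts, with 11 of 12 genes higher in the mean of either infarcted group. The 12 macrophage markers summed to 279 to 359, 1198 to 1808 and 1170 to 1699 TPM, also with 11 of 12 higher, and the 14 cardiomyocyte markers to 92201 to 99486, 71425 to 85083 and 72314 to 89926 TPM, with 4 of 14 higher. The 8 lung and thymus genes summed to at most 0.119 TPM in sham and 0.315 TPM in rHCI hearts. In PBS hearts their sums ran from 0.0834 to 148 TPM. The part of these cell types, or of other tissue, in the shares was not tested.

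Shares of some families were not called different. The Pdk4 share was 59.9% ± 6.98 in PBS and 60.03% ± 10.2 in rHCI hearts, against 57.7% ± 12.5 in sham (adjusted p = 0.771 in both, exact permutation). Along with Pdk4, Tnnc1 (troponin C), Ryr2, Esrra, Adrb1, Ppargc1a and the ATP synthase subunit Atp5g3 did not pass in either comparison. For Adrb1, Ppargc1a and Pdk4 the sham hearts themselves differed by an SD of more than 3 points.

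The 5 hearts were alike for most genes. Among 10001 genes with a mean of at least 5 CPM, the median SD of log2 CPM was 0.091 and the 90th percentile was 0.184. The biological coefficient of variation estimated by edgeR was 8.66% in common. Only 37 genes (0.37%) had an SD above 0.5, the mark set here for a variable gene, and in the PBS and rHCI hearts 50 (0.5%) and 134 (1.34%) of the same genes did. Of the 37, which were picked for their spread in sham hearts, 27 had a smaller spread in both infarcted groups. Still, 14 of the 37 (37.8%) had an SD above 0.5 in PBS hearts and 16 (43.2%) in rHCI hearts. Over all 10001 genes these parts were 0.5% and 1.34%. The largest SD is a ranking of these hearts and carries no test. The last named gene inside the ranking of 25 was PISD with an SD of 0.56, and the first outside was Scd4, also with 0.56.

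**Figure D4:**
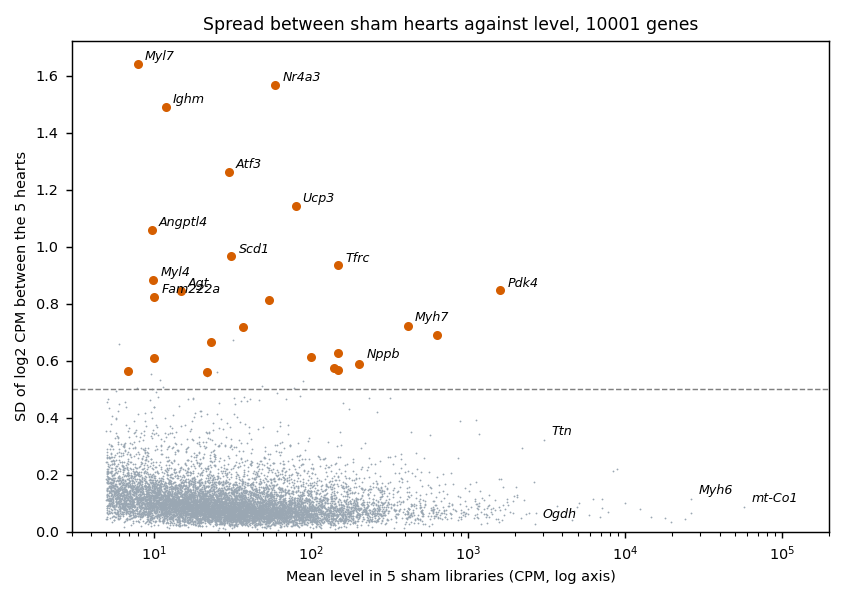
SD of log2 CPM between the 5 sham hearts (y axis) against mean CPM (x axis, log axis) for 10001 genes (grey), with the 25 named genes of largest spread in orange and a dashed line at 0.5. Most genes lie near 0.1 at every level, and Pdk4, at 1601 CPM, is the most abundant of the 25.

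Groups of genes differed in spread. Against a median of 0.09 over all genes, the median SD of log2 CPM was 0.06 for the tricarboxylic acid cycle, 0.07 for glycolysis, 0.08 for nuclear complex I and 0.08 for calcium handling. It was 0.11 for the sarcomere and 0.13 for heat shock genes. Higher medians were found for fasting and PPAR targets (0.32), wall stress (0.31), immediate early (0.25), interferon-induced (0.25), core clock (0.23) and glucocorticoid-responsive genes (0.23). The order of these lists is a description of 5 hearts, and members of a list do not count as independent.

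The variable genes were not shared evenly among the hearts. Of the 37, 16 were highest in Sham 16, 11 in Sham 20, 4 each in Sham 17 and Sham 18 and 2 in Sham 19. Sham 19, the library with the other run number, was thus highest for the fewest of the 37. Over all 10001 genes, Sham 16 to Sham 20 were highest for 16.5%, 15.8%, 21.7%, 17% and 29.0%, and lowest for 15.9%, 22.5%, 22.9%, 21.3% and 17.4%.

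**Figure D5:**
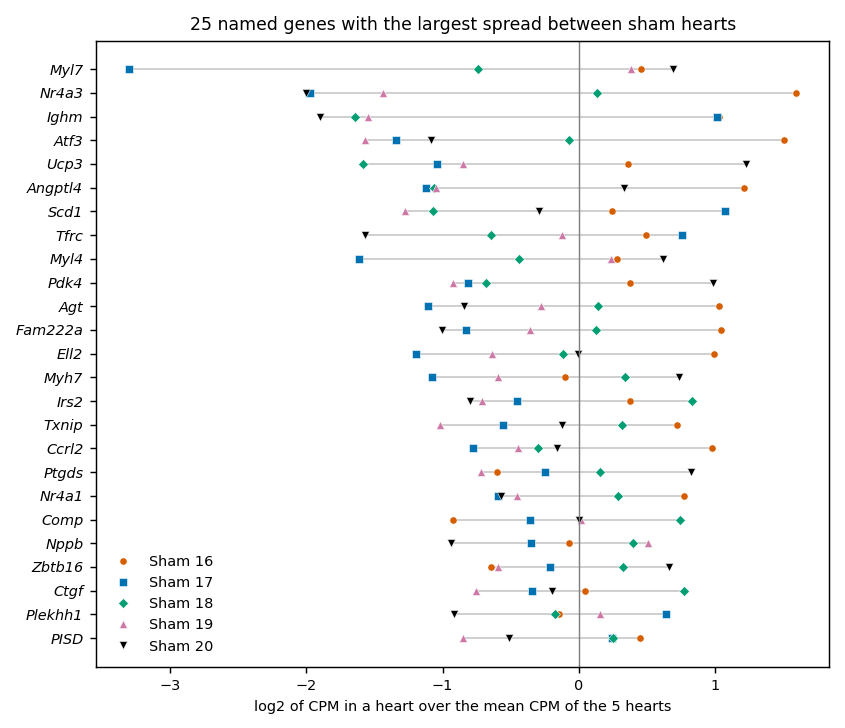
CPM of each sham heart over the mean of the 5 hearts (x axis, log2) for the 25 named genes of largest spread (y axis, in order of SD), with a symbol for each heart and a line over the range. Sham 16 is rightmost for 11 of the 25 and Sham 20 for 7, and Sham 17 is far to the left for Myl7.

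Of the atrial list, 2 of 8 genes with at least 5 CPM had an SD above 0.5, and the median SD of the list was 0.12. Myl7, first in the ranking and the regulatory light chain of atrial myosin (ENSMUSG00000020469; chromosome 11, 5896637 to 5898782), had 10.9, 0.804, 4.75, 10.3 and 12.8 CPM in Sham 16 to Sham 20, an SD of 1.64 that was 0.64 without Sham 17. Myl4, the atrial essential light chain, had 12.1, 3.24, 7.32, 11.7 and 15.2 CPM, with an SD of 0.88 and of 0.44 without Sham 17. Sarcolipin (Sln), the pump inhibitor of atrium, lay below the level for ranking, with 2.49, 0.0183, 0.52, 1.55 and 2.35 CPM. All 3 genes were lowest in Sham 17 and next lowest in Sham 18. Nppa was also lowest in Sham 17, whereas Fxyd1 and Kcnj3, other genes of the atrial list, had an SD of 0.07 and 0.09. Bmp10, a growth factor of the right atrium, was close to 0, with 0.00605 ± 0.00676 TPM. Whether these values follow the amount of atrial tissue in a sample was not tested. Myh7 had 387, 197, 524, 274 and 691 CPM, with Sham 17 again the lowest, and Sham 20 the highest.

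A group of early response genes was high in Sham 16. Nr4a3, an orphan nuclear receptor induced within the hour by many stimuli (ENSMUSG00000028341; chromosome 4, 48045153 to 48086447), had 179, 15.0, 65.1, 21.9 and 14.8 CPM in Sham 16 to Sham 20. Atf3, a stress-induced transcription factor, had 85.3, 11.9, 28.7, 10.1 and 14.2 CPM. Nr4a1 had 170, 66.0, 122, 72.9 and 67.1 CPM. In all 3 genes Sham 16 was highest and Sham 18 second. Without Sham 16 the SD of Nr4a3 went from 1.57 to 1.01 and that of Atf3 from 1.26 to 0.66. Ell2, a factor of transcription elongation, had 107, 23.6, 49.8, 34.7 and 53.8 CPM, and Fam222a had 20.8, 5.67, 11.01, 7.85 and 5.02 CPM, the latter with an SD of 0.82 and of 0.51 without Sham 16. Below the level for ranking, Nr4a2 had 13.3 CPM in Sham 16 and 2.2 to 3.04 in the others, and Fosb had 6.26 and 0.803 to 2.0. Other early genes, named after their values were seen, did not follow. Fos was lowest in Sham 16 (2.21 CPM, against 3.89 to 4.8), Dusp1 was lowest there too (66.3 CPM), and Egr1 had 8.87 CPM in Sham 16 and 9.33 in Sham 19. Of the 17 early genes with at least 5 CPM, 7 were highest in Sham 16 and 5 were lowest there, against 16.5% and 15.9% of all genes.

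The sequences before the start of 4 of these genes are shown because they hold a short motif, several times in Nr4a3, Nr4a1 and Ell2. They are the 250 bases before the first listed RefSeq start (build GRCm38.p6), 5′ to 3′ on the gene's strand. Capitals mark TGACG on either strand, the core of the element bound by CREB and related factors. The windows are chr4:48045055-48045304 (plus strand) for Nr4a3, chr15:101266596-101266845 (plus) for Nr4a1, chr13:75707234-75707483 (plus) for Ell2 and chr1:191183334-191183583 (minus) for Atf3.
Nr4a3: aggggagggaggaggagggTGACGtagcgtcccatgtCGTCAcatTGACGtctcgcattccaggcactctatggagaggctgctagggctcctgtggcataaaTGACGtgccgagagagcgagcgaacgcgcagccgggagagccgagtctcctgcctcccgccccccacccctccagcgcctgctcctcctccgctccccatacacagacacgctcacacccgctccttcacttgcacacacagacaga
Nr4a1: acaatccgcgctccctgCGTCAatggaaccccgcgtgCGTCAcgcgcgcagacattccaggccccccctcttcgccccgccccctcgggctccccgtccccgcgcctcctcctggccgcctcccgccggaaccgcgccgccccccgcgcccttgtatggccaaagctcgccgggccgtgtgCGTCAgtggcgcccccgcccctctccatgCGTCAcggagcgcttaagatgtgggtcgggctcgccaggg
Ell2: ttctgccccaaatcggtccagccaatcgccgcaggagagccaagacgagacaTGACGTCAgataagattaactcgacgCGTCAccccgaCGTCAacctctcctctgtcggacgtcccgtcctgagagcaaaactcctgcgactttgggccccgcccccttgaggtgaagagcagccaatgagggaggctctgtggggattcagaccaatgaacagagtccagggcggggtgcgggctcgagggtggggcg
Atf3: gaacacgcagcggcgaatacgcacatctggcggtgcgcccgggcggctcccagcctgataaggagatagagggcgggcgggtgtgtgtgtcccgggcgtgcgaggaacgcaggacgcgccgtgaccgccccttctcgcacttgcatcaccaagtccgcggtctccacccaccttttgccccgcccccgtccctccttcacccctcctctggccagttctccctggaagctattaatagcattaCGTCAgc
Nr4a3, Nr4a1 and Ell2 hold 4 matches each and Atf3 holds 1. Of all 27025 promoters of that length, 17.9% hold at least 1 match and 0.696% hold 3 or more. In Ell2, 2 of the 4 matches overlap in the palindrome TGACGTCA, which 1.62% of promoters hold. A promoter was found for 18 of the 25 named genes. Of the 8 that were highest in Sham 16, 4 held TGACG, and of the 10 that were highest in another heart, 1 did (Myh7). In all, 6 motifs were searched on both strands, and the genes printed were chosen after values and matches had been seen. Besides TGACG and TGACGTCA they were AGGTCA, the core of many nuclear receptor sites, found in Ucp3 and Plekhh1 and held by 13.8% of promoters. The E-box CACGTG was found in Irs2 and is held by 6.05%. The TATA box, searched as TATAAA, was found in Agt and Nppb and is held by 13%. The element TTATGTAA of the clock output factors was found in Ptgds and is held by 0.862%. A match is a description of the letters, and no binding was measured.

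Genes of fatty acid use and fasting were high in Sham 20 and Sham 16. Pdk4 (ENSMUSG00000019577; chromosome 6, 5483351 to 5496309) had 2077, 913, 1000, 843 and 3172 CPM in Sham 16 to Sham 20. Ucp3, a mitochondrial carrier of muscle, had 102.6, 38.8, 26.7, 44.4 and 187 CPM. Angptl4, a secreted inhibitor of lipoprotein lipase, had 22.6, 4.46, 4.65, 4.69 and 12.2 CPM. The values of Sham 16 and Sham 20 did not overlap those of the other 3 hearts for any of these genes, and Angptl4 alone of them was highest in Sham 16, without which its SD went from 1.06 to 0.70. Acot2 and Cpt1a, which handle fatty acyl groups, had the same pair on top, with 114 and 126 CPM and 72.9 and 77.4 CPM. Of the 12 genes of this list with at least 5 CPM, 9 were highest in Sham 20 and 3 in Sham 16, against 29.0% and 16.5% of all genes.

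Other metabolic genes had other patterns. Scd1, which makes unsaturated fatty acids, had 36.9, 65.9, 14.9, 12.9 and 25.5 CPM, highest in Sham 17. Tfrc, the receptor that takes up iron, had 211, 253, 95.5, 137 and 50.3 CPM, highest in Sham 17 and lowest in Sham 20. Irs2, an adaptor of the insulin receptor, was highest in Sham 18 (66.0 CPM, against 21.3 to 48.2), and Txnip, which restrains glucose uptake, was highest in Sham 16 (1056 CPM, against 316 to 798).

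Antibody genes set 2 hearts apart. Ighm, the heavy chain of immunoglobulin M (chromosome 12, 113418558 to 113422730), had 24.4, 24.3, 3.83, 4.1 and 3.21 CPM in Sham 16 to Sham 20. The light chain Igkc, at lower counts, had 6.98, 9.05, 0.419, 0.611 and 0.434 CPM, and Jchain, which joins secreted antibodies, had 3.56, 2.91, 0.134, 0.0698 and 0.162 CPM. All 3 were high in Sham 16 and Sham 17 alone. The summed level of the 8 B and plasma cell markers was 63.0 and 71.6 TPM in these hearts and 6.62 to 8.53 TPM in the others. The adipocyte genes Cfd (8.35, 9.25, 0.571, 1.88 and 1.48 CPM) and Adipoq (1.43, 1.99, 0.201, 0.436 and 0.707 CPM) were also highest in these 2 hearts. The whole list of 11 adipocyte markers differed less, with sums of 87.3, 78.3, 50.6, 66.7 and 65.2 TPM in Sham 16 to Sham 20. Only 2 of its genes had at least 5 CPM. Of these, 1 was highest in Sham 16 and 1 in Sham 19, and 1 was lowest in Sham 16 and 1 in Sham 17. The part of adipose or other tissue in the antibody values was not tested.

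Hormone and signalling genes added to the ranking. Agt, angiotensinogen, had 30.4, 6.91, 16.4, 12.2 and 8.3 CPM, with Sham 16 highest and an SD of 0.85 that was 0.56 without it. Ptgds, a prostaglandin D synthase, had 98.2, 125, 166, 90.2 and 263 CPM, and Zbtb16, a transcription factor induced by glucocorticoids, had 90.1, 122, 177, 93.4 and 223 CPM. Both had Sham 20 highest and Sham 18 second, and the SD of Ptgds went from 0.63 to 0.39 without Sham 20. In the glucocorticoid list, 8 of 16 genes were highest in Sham 20 (29.0% of all genes) and 9 were lowest in Sham 17 (22.5%), and its summed level ran from 1263 TPM in Sham 17 to 1718 TPM in Sham 20. Ccrl2, a receptor of the chemokine receptor family, had 45.5 CPM in Sham 16 and 13.5 to 20.8 in the others, and its SD went from 0.66 to 0.26 without Sham 16.

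Matrix and wall stress genes had their own order. Ctgf, connective tissue growth factor, had 154, 117, 255, 88.3 and 130 CPM, and Comp, a matrix protein of tendon and cartilage, had 5.33, 7.88, 16.96, 10.3 and 10.1 CPM, both highest in Sham 18. The SD of Ctgf went from 0.57 to 0.34 without that heart. Fmod, a collagen-binding proteoglycan, was likewise highest there (16.2 CPM, against 6.44 to 10.9). Ankrd1, a stretch-responsive protein of the sarcomere, had 1328, 787, 1086, 1436 and 1257 CPM, and Acta1 had 181, 196, 277, 358 and 165 CPM. Of 13 wall stress genes, 8 were highest in Sham 19 (17% of all genes) and 8 were lowest in Sham 17 (22.5% of all genes).

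Some lists pointed to 1 heart although few of their genes passed 0.5. All 14 interferon-induced genes with at least 5 CPM were lowest in Sham 20, whose summed level was 123 TPM against 166 to 187 in the others, and Sham 20 was lowest for 17.4% of all genes. Rsad2, an antiviral enzyme, had 20.1, 20.7, 18.3, 19.9 and 10.6 CPM. All 9 macrophage genes with at least 5 CPM were lowest in Sham 20 as well, and the sum of all 12 was 279 TPM against 338 to 359. At that level, 8 of 12 fibroblast, 6 of 8 pericyte and 4 of 14 capillary endothelial genes were also lowest there. Of the 14 cardiomyocyte genes, 2 were lowest and 6 highest in Sham 20, which had their highest sum, 99486 TPM. All 5 erythroid genes with at least 5 CPM were highest in Sham 17, which was highest for 15.8% of all genes. There, Hbb-bs, whose reads cannot be told with certainty from those of its close copy Hbb-bt, had 122 CPM against 58.0 in the lowest heart, Sham 16. Of 17 clock genes, 8 were lowest in Sham 19, which was lowest for 21.3% of all genes. Dbp, a clock output factor, had 30.6, 19.6, 17.4, 12.2 and 29.1 CPM in Sham 16 to Sham 20, and Arntl, the clock activator whose daily peak lies opposite to that of Dbp, had 17.6, 23.0, 24.5, 26.99 and 16.2 CPM. The hearts with the most Dbp, Sham 16 and Sham 20, had the least Arntl.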

How the data were processed

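Stranded mRNA libraries of ventricular RNA were made by the submitters, per the labels' protocols. Their processing notes name Trimmomatic, STAR, Cufflinks, edgeR, GRCm38 and mm10 without roles. Which program counted reads, with what strand rule and gene models, is not given in the sources used here. Values deposited are whole-number counts per gene that the authors did not normalize. Groups came from the titles, and the 5 sham columns were used throughout, with 53211878 to 100899246 counts each. Precision is that of counting and of 5 libraries, and intervals and limits cover counting error only. Of 47069 identifiers, 46488 were found in GENCODE M21, which gave positions and principal transcript lengths. Of symbols listed more than once, the identifier with most sham counts was used.

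From the counts, TMM factors and the biological coefficient of variation (edgeR 4.0.16, R 4.3.3), CPM, TPM, paralog shares per length and the SD of log2 CPM (prior count 2, mean of at least 5 CPM) were computed in Python 3.11.15 with pandas 2.3.3 and numpy 2.4.6. Scripts were tested on simulated data. Lead shares were compared between groups by two-sided exact permutation tests, 88 in all, with Benjamini-Hochberg adjustment over them. The rule for named genes took the 25 with the largest share, leads and members of at least 5% of each family, the 25 of largest spread from 5 CPM (predicted and clone names left out) and, in each list, the 3 highest, the 2 most variable and markers at 0. Other genes named were chosen after their values were seen. The members, lists, families and rules were chosen with earlier results of these data known. The principal transcript was chosen for length, and the 99% identity mark for nuclear copies was set, after values had been seen. Alternatives were other scalings, filters and lengths, plain counts, libraries of 1 run number and leaving out each library. The values of 1 family are counted in the totals but not reported here by name. Promoters came from RefSeq GRCm38.p6.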

Additional observations from a re-analysis of the deposited data

Results flagged for a closer look

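In 139 sets of 5 sham values, 7 had 1 heart whose gap to its nearest neighbour took most of the range of the set, as measured by Dixon's ratio. Chance alone flags about 1 set in 20, so the number flagged was near that of chance, and the 7 are listed as a description. The rate does not hold for the 25 named variable genes among the sets, which were picked for their spread in these hearts. Atf3 and Ccrl2 are 2 of them. Sham 16 was the high heart for Atf3, with 85.3 CPM against 10.1 to 28.7 (ratio 0.754), and for Ccrl2, with 45.5 CPM against 13.5 to 20.8 (ratio 0.774). Sham 20 was high for the share of Cox6a2 in its family, with 94.8% against 93.8% to 94.1% (ratio 0.744), and for that of Eef1a2, with 67.7% against 66.0% to 66.4% (ratio 0.78). Sham 20 was low for the summed macrophage markers, with 279 TPM against 338 to 359 (ratio 0.742). Sham 17 was high for the summed T and NK cell markers, with 6.16 TPM against 3.89 to 4.06 (ratio 0.922), a list with 1 of 10 genes above 1 TPM. Sham 19 was low for the share of Pgam2, the muscle phosphoglycerate mutase, with 96.9% against 97.5% to 97.7% (ratio 0.71).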

How the results depend on the processing

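The share of the 25 largest genes was 38.6% per length and 18.3% without mitochondrial genes, and 29.74% to 30.01% without 1 library. The 37 variable genes became 102 with a minimum of 1 CPM and 23 with 20 CPM, which change how many genes are ranked, and 38 to 49 without 1 library. Of the 25 named, 10 had an SD at or below 0.5 without 1 library, and the SD of 10 was lower by over 1.5 times. Families with a changed lead share numbered 34 to 38 for PBS and 27 to 33 for rHCI over all settings. Calls for Tnni3 in both comparisons, for Tnnt2 and Cox4i1 in PBS, and for Actb, Aldoa, Mef2a, Mybpc3 and Pln in rHCI hearts were among those lost in some fits without 1 library. Differences that changed sign were never called in the main comparison. For PBS these were Adrb1 (-2.35 to 0.236 points without 1 library), Atp5g3 (-0.201 to 0.0313, and 0.00435 in 1 run number), Esrra (-0.878 to 0.169), Pdk4 (-0.258 to 6.40) and Tnnc1 (-0.0631 to 0.00112). For rHCI they were Atp5g3 (-0.158 to 0.0625, 0.245 with plain counts and 0.0894 with joined exons), Pdk4 (-0.380 to 6.48, and -1.61 in 1 run number) and Tnnc1 (-0.000277 to 0.00260, and -8.44e-05 in 1 run number). The cause was not tested. Joined exon lengths were added after seeing the data. They moved 30 of 44 sham lead shares by more than 1 SD, and plain counts moved 26. No paired analysis was possible because the groups share no replicate numbers. Depth limits genes of few counts, such as Bmp10 with 5 counts over the sham libraries.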
